A study of Mus musculus with 8 samples.

Results

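The cells described here are myeloid cells of the mouse colonic lamina propria (cLP) that were rich in transcripts of Il1rn, Clec4e, Saa3, Arg2 and Ccl24. They were chosen by measured values in single-cell RNA sequencing (scRNA-seq). A cell was taken when these 5 genes together reached at least 10 unique molecular identifiers (UMIs) per 10000, Hp, Chil3 and F13a1 together stayed under 20 per 10000, and C1qa, C1qb and C1qc together stayed under 60 per 10000. Cells with a UMI of Xcr1, Clec9a, Flt3, Cd3d, Cd3e or Cd3g were not taken. Of 5947 deposited barcodes, 3213 cells passed the filters of at least 631 UMIs, at least 399 genes, at most 5% mitochondrial UMIs and no hemoglobin UMI. Of these 3213 cells, 433 (13.5%) met the rule, 131 from control and 302 from cKO mice. They are called Il1rn and Clec4e high cells from here on, after the genes found in most of them, and members in the plots.

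The products of these genes belong to the inflammatory programme of myeloid cells. Il1rn encodes the secreted antagonist that occupies the IL-1 receptor without signalling, so it limits the action of the cytokines IL-1α and IL-1β. Clec4e encodes Mincle, a C-type lectin receptor that senses microbial glycolipids and signals of dying cells through the Fc receptor γ chain. Saa3 is an acute phase serum amyloid A, Arg2 is the mitochondrial arginase, and Ccl24 is a chemokine that attracts eosinophils. Thbs1, which the rule did not use, encodes the matrix protein thrombospondin 1. In the intestine, CCR2+ monocytes that arrive from blood pass through Ly6C+ stages on their way to C1q-rich resident macrophages, and the genes above are known from the inflammatory side of this series.

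All 8 mice were female CD98hcΔCX3CR1 littermates that carried a floxed CD98hc gene together with Cx3cr1-CreER-YFP, a Cre recombinase that is driven by Cx3cr1 and needs tamoxifen to act, with a YFP reporter. The 4 control mice received corn oil, and the 4 cKO mice received 100 µl of tamoxifen at 20 mg/ml in corn oil on each of 5 days, as the sample labels have it. The methods state the dose by body weight instead, so the amount each mouse received is uncertain. Cells were taken on day 7, and CD11b+ cells positive for CCR2, CD64 or both were sorted. As only cKO mice received tamoxifen, the drug and the deletion cannot be told apart, and Cre can act only in cells with an active Cx3cr1 locus. The mice were 6 to 12 weeks old. Each mouse filled 1 well of the same run, so the mouse is the replicate. Mice are numbered 1 to 4 (control) and 5 to 8 (cKO).

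The 433 cells had a median of 4549 UMIs (631 to 12143) and 1557 genes. The median UMI count per mouse was between 3948 and 4550 in control and between 3883 and 6307 in cKO mice (two-sided exact permutation test over mice, p = 0.171). Scrublet called 16 of the cells doublets, and they were kept. Libraries shared 25 barcode sequences, of which 2 belonged to Il1rn and Clec4e high cells. Control 2 (7 cells), control 3 (10 cells) and cKO 5 (12 cells) held too few of these cells for a sum of their own, so tests between conditions rest on control 1, control 4, cKO 6, cKO 7 and cKO 8 unless stated otherwise. Their summed counts were between 156880 and 691962 UMIs.

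The label of inflammatory myeloid cells was checked against marker genes. Levels are given in CPM, the UMIs of a gene per 1000000 UMIs of the cells summed per mouse, and class means are over mice with at least 20 such cells. Tyrobp, a signalling adaptor of myeloid cells, was found in 97.5% of the cells, with a mean of 2809 CPM, and Lyz2, the lysozyme of monocytes and macrophages, stood at 11161 CPM. Of the neutrophil genes, S100a8 at 6.8 CPM, Cxcr2 at 2.0 CPM and Ly6g at 1.6 CPM were near 0, while Ngp, Mpo, Elane and Stfa2l1 had no UMI. The eosinophil genes Siglecf, Il5ra, Ear6 and Alox15 and the mast cell and basophil genes Cpa3, Mcpt8, Ms4a2 and Gata2 had no UMI either. Other eosinophil genes were found at low counts in the mice tested. Cd24a had 8 and 28 UMIs in control and cKO cells, Ear2 12 and 24, Ear1 2 and 13, and Prg2 0 and 6. The summed eosinophil list (9 genes) was between 0 and 99.5 CPM in control and between 40.5 and 114 CPM in cKO mice. The summed neutrophil list (18 genes) was between 99 and 612 CPM in control and between 268 and 610 CPM in cKO mice. The highest value, in control 1, held 344 CPM of G0s2. Csf3r, of the same list, had a UMI in 25 of 114 control and 80 of 290 cKO cells of the mice tested. The list had a mean of 488 CPM in these cells and 655 CPM in cells rich in Hp, Chil3 and F13a1. It had 119 CPM in C1q high cells and 154 CPM in the remaining cells. Trem1 and Acod1, which monocytes also use, were the 2 of 5 neutrophil genes tested that rose in cKO mice, against 1% of all genes. Their log2 fold changes were 1.41 and 2.81 (edgeR adjusted p = 0.047 and 0.0384). With all 8 mice Trem1 did not pass and Acod1 did (1.20 and 2.29, edgeR adjusted p = 0.202 and 0.0285), Trem1 did not pass with a Tyrobp UMI required (edgeR, adjusted p = 0.0673), and they passed in 5 and 11 of 18 settings. The summed monocyte list (10 genes) was 4449, 1728, 5888 and 4836 CPM in control and 6851, 8389, 10780 and 8825 CPM in cKO mice, higher in each of the latter. The summed macrophage list (16 genes) was between 6058 and 12556 CPM and between 5142 and 9544 CPM. The monocyte list includes Hp, Chil3 and F13a1 and the macrophage list C1qa, C1qb and C1qc, all kept low by the rule. Both sums are therefore descriptions without a test. The summed dendritic cell list (12 genes) was between 38.4 and 303 CPM in control and between 14.1 and 120 CPM in cKO mice. It includes Xcr1, Clec9a and Flt3, which the rule required to be absent. Cd209a, of this list, had 52 UMIs in 5 of 114 control cells of the mice tested, 92.3% of them in 3 cells. It had 5 UMIs in 4 of 290 cKO cells. The part of such cells in the lower genes below was not tested. Jchain, a plasma cell gene, reached 4393 CPM in control 4 and 3616 CPM in cKO 7, and stood at 59.7 to 765 CPM in the other mice. Single cells carried the 2 high values, since 1 cell of control 4 held 1167 of the 1248 Jchain UMIs of that mouse and 1 cell of cKO 7 held 2406 of 2502. Each held 2 UMIs of Tyrobp and none of Ptprc, and Jchain made up 22.9% and 28.5% of their UMIs. A cell of control 1 with 688 UMIs held 20 UMIs of Lgals4 and 9 of Krt19, both epithelial genes, and none of Tyrobp or Ptprc, and was taken on a single UMI of the 5 genes.

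Besides the 2 cells rich in Jchain and the cell with epithelial genes, 3 of the 433 cells went against the label by their stromal markers. One cell of control 1 and 2 cells of control 4 held between 149 and 227 UMIs of stromal markers each, such as the collagen-binding proteoglycan gene Dcn, and had no UMI of Tyrobp or of Ptprc, which encodes the leukocyte antigen CD45. They met the rule through Saa3 (19 to 143 UMIs) and had no UMI of Il1rn, Clec4e, Arg2 or Ccl24. No other cell held more than 5 stromal marker UMIs. The summed stromal list was accordingly 1192 CPM in control 1 and 1418 CPM in control 4, against 60 and 154 CPM in the other control mice and 71 to 141 CPM in cKO mice. Lower genes are therefore also given below for the 422 cells that held a Tyrobp UMI, an alternative chosen after seeing the data. Of the 11 cells without one, 9 were from control and 2 from cKO mice. The 2 cells rich in Jchain held Tyrobp UMIs and stay among the 422.

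**Figure D1:**
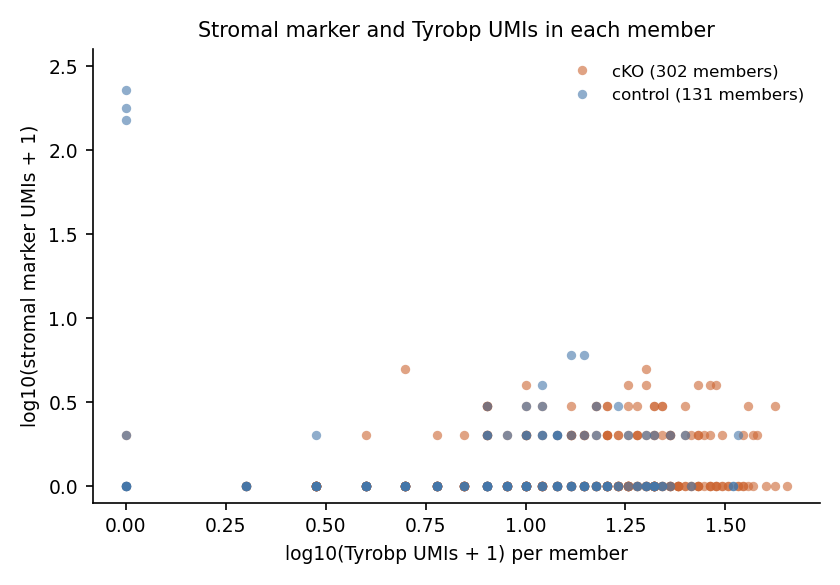
Each point is 1 of the 433 cells, with its UMIs of stromal marker genes (vertical axis, log10 of UMIs + 1) against its Tyrobp UMIs (horizontal axis, log10 of UMIs + 1), for 131 control and 302 cKO cells. The 3 cells at 149 to 227 stromal UMIs have no Tyrobp UMI and come from control mice, and every other cell lies at 5 stromal UMIs or fewer.

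The free RNA of the droplets was read from 65 cells with at least 2 UMIs of Cd3 genes, which should lack the genes of the rule. Their median UMI count was 2741, and 6.15% of them held a UMI of Il1rn, 9.23% of Clec4e, 13.8% of Saa3, 3.08% of Thbs1 and none of Arg2 or Ccl24. In the Il1rn and Clec4e high cells the shares were 82.0%, 79.2%, 36%, 75.3%, 39.3% and 18.7% in the same order of genes. Of the Cd3 cells, 1 (1.54%) passed the cut of the 5 genes, against 31.8% of cells without a UMI of the genes that had to be absent. The Cd3 cells pool all mice and held fewer UMIs than the Il1rn and Clec4e high cells (median 4549). For genes outside the rule, their share below need not be free RNA.

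The values that chose the cells are given as a description only. The 5 genes together had a median of 25.3 UMIs per 10000, from 10.1 to 937, and a median of 11 UMIs per cell, and 8 cells were taken on a single UMI. Just inside the cut, 42 cells lay under 12.5 per 10000. Just outside it, 43 cells lay at 8 or more, the highest at 9.96. The choice also left neighbours aside, since 851 cells without a UMI of the absent genes passed the cut of the 5 genes, of which 218 were set aside for Hp, Chil3 and F13a1 and 200 for the C1q genes.

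The 5 genes were not spread alike over the cells. Il1rn (chr2:24336853-24351494, plus strand, GRCm38) and Clec4e (chr6:123281789-123289870, minus strand) were found in 355 and 343 of 433 cells and gave 24.3% and 20.5% of the UMIs of the 5 genes. Saa3 (chr7:46711998-46715700, minus strand) gave 42.1% of these UMIs from 156 cells, and the 10% of cells richest in it held 89.9% of its UMIs, up to 338 in a single cell. Ccl24 (chr5:135569937-135573049, minus strand) was likewise held by few cells, with 93.8% of its 842 UMIs in the richest 10% of cells and 174 UMIs in a single cell. Arg2 (chr12:79130777-79156301, plus strand) was seldom above a few UMIs, with 412 UMIs over 170 cells. Il1rn and Clec4e thus mark most of the cells, and Saa3 and Ccl24 mark small numbers of cells strongly.

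The genes also differed in how often they shared a cell. Clec4e was found in 81.1% of cells with Il1rn and in 70.5% of cells without it. Arg2 was found in 45.5% of cells with Clec4e and in 15.6% of cells without it. Saa3 and Ccl24 were found together in 20 cells only. A single gene of the 5 was detected in 62 cells, 2 genes in 164, 3 genes in 119, 4 genes in 82 and all 5 in 6. Of the 88 cells with 4 or 5 of the genes, 9 were among the 131 control and 79 among the 302 cKO cells. These counts pool the mice, and cKO 7 gave 145 of the 302 cells. Cells with more of the genes also held more UMIs (a median of 1952 with 1 gene and 5939 with 4), and the part of depth in these counts was not tested.

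Il1rn had 657, 614, 796 and 746 CPM in control 1 to 4 and 1494, 1203, 1185 and 1665 CPM in cKO 5 to 8. All cKO mice lay above all control mice, also in those with few cells. Clec4e had 523, 730, 875 and 613 CPM in control and 1142, 1021, 1266 and 987 CPM in cKO mice, again without overlap. As both genes chose the cells, their log2 fold changes, 0.97 for each, carry no test. Saa3 varied widely between mice, with 1090, 0, 1074 and 961 CPM in control and 98.7, 4650, 2578 and 1420 CPM in cKO mice. Ccl24 stood at 102, 0, 298 and 1288 CPM in control and 0, 228, 455 and 172 CPM in cKO mice, and Arg2 at 128, 115, 79.6 and 187 CPM against 42.3, 139, 283 and 227 CPM. For these 3 genes the groups overlapped, and cKO 5 (12 cells) was low for each of them. Thbs1, outside the rule, had 771, 730, 696 and 1035 CPM in control and 1212, 1139, 1278 and 905 CPM in cKO mice, and its log2 fold change of 0.31 ± 0.21 (SE) did not pass the test (edgeR, adjusted p = 0.604).

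**Figure D2:**
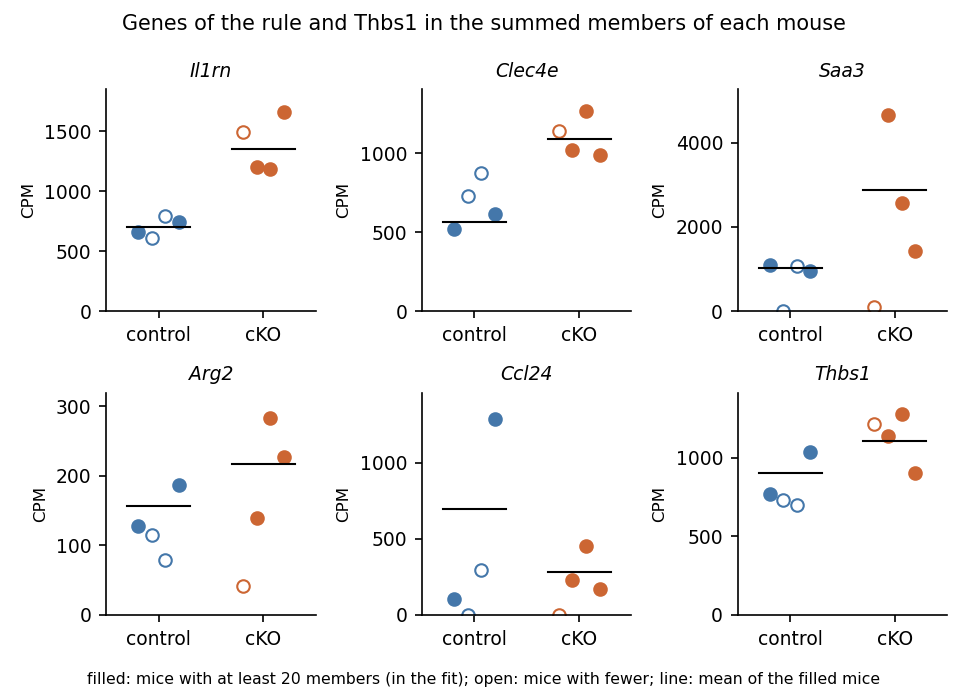
CPM of the 5 genes of the rule and of Thbs1 in the summed Il1rn and Clec4e high cells of each mouse, with 1 point per mouse, for control and cKO mice. Il1rn and Clec4e lie higher in all cKO mice, from 1185 and 987 CPM upward, while Saa3, Arg2, Ccl24 and Thbs1 overlap between the groups.

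The first question of the design was whether these cells took another share of the sorted cells after tamoxifen. In control mice they made up 5.94% (43 of 724), 1.39% (7 of 505), 11.8% (10 of 85) and 12.9% (71 of 549) of the kept cells. In cKO mice they made up 14.5% (12 of 83), 16.3% (57 of 349), 30.0% (145 of 484) and 20.3% (88 of 434). The groups did not overlap, with means of 8.01 ± 5.37% and 20.3 ± 6.91% (SD, n = 4), a difference of 12.3 percentage points (two-sided exact permutation test over 70 arrangements, p = 0.0286, the smallest this design can give). The neighbours across the groups were control 4 (Wilson 95% interval 10.4 to 16%) and cKO 5 (8.47 to 23.6%), whose intervals overlap. Intervals cover counting error only, and the share rests on the genes of the rule, so a cell can enter it by a higher level of Il1rn or Clec4e alone.

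The share also depends on what else was sorted. Leaving cells with a UMI of the absent genes out of the denominator gave a difference of 11.7 points (p = 0.0857), and leaving out doublet calls gave 11.4 (p = 0.0857), each by the same exact permutation test. Per deposited barcode the difference was 5.86 points and the groups overlapped, with a highest control mouse at 7.85% and a lowest cKO mouse at 5.55% (exact permutation test, p = 0.143). Without control 1, 2 or 3 or cKO 7 the exact permutation test gave p = 0.0571, with differences from 9.02 points (without cKO 7) to 13.5 points (without control 3). The absent-gene cells themselves fell from 24.1% in control to 8.37% in cKO mice (exact permutation test, p = 0.0286).

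Among the classes next to them, cells rich in Hp, Chil3 and F13a1 (20 or more per 10000, called Hp and Chil3 high cells) rose from 4.83 ± 3.29% to 18.9 ± 7.55% of kept cells (SD, n = 4, exact permutation test, p = 0.0286). The C1q high cells were 35.2 ± 4.28% and 25.8 ± 3.79% (exact permutation test, p = 0.0571), and the remaining cells 27.9% and 26.7% (p = 0.8 by the same test). Per 100 cells of the Il1rn and Clec4e high and the Hp and Chil3 high class together, the former numbered 57.3 ± 26 in the control group, against 52.1 ± 6.42 in the cKO group (SD, 4 mice each, exact permutation test, p = 0.686). The balance between both classes was therefore not shown to change, although the control mice ranged widely. These classes and the absent-gene cells are cut on genes of the rule, as the share above is. Shares of the same kept cells also move against each other, so these tests are not independent.

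**Figure D3:**
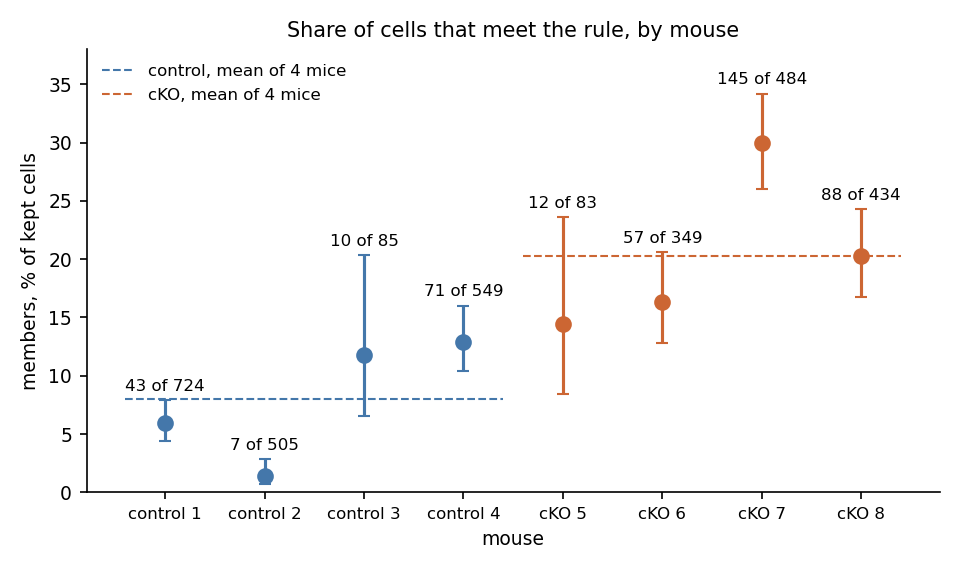
Il1rn and Clec4e high cells as a percent of the kept cells, with 1 point per mouse, its Wilson 95% interval as a bar and the mean of each group as a line. Control mice lie between 1.39 and 12.9% and cKO mice between 14.5 and 30.0%.

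Against the other 2780 kept cells, the genes that led the Il1rn and Clec4e high cells were inflammatory mediators and enzymes. These folds of summed CPM (prior of 10 CPM) are a description without a test, because the cells were chosen by their transcripts. They pool the mice, and as 302 of the 433 cells came from cKO mice, they also hold differences between the mice. Of the leading 15 genes, 11 were not in the rule, and 9 of these 11 were higher in the cells than in the other cells of the same mouse in at least 7 mice. Arg1, the cytosolic arginase, led with an 8.03-fold difference (243 and 21.5 CPM), but only 11.1% of cells held it. Il1a, the IL-1α gene, followed with 5.76-fold (418 and 64.3 CPM), and Cxcl3, a chemokine for neutrophils, with 5.17-fold (480 and 84.6 CPM). Ptgs2, the inducible cyclooxygenase, was 4.28-fold and Tgm2, a transglutaminase, 3.70-fold higher. Timp1, an inhibitor of matrix proteases, was 4.63-fold and Spp1, osteopontin, 4.20-fold higher, each in few cells (15.2% and 14.3%). Slc16a3, a lactate exporter, was 3.86-fold and Tarm1, an activating receptor of myeloid cells, 3.67-fold higher, and AA467197 and Dmkn were 4.31-fold and 3.77-fold higher. Within single mice the folds were smaller for several genes and varied widely, with 0.585 to 6.80 for Il1a (median 1.98), 0.673 to 56.2 for Arg1 (median 4.75), 0.299 to 6.10 for Ptgs2 (median 3.54) and 0.178 to 5.29 for Spp1 (median 2.11). Tgm2 was higher in every mouse, by 2.08 to 5.06-fold, and Cxcl3 by 1.09 to 4.88-fold. At the other end stood C1qa, which the rule kept low, and Cd24a, Fcrls, Cd81 and Mgl2.

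Of the levels that the rule did not use, those of Il1b, Cxcl2, Ptgs2 and Cd14 were highest in the Il1rn and Clec4e high cells, and those of Ly6c2 and H2-Aa lay between Hp and Chil3 high and C1q high cells. Il1b had a mean of 9746 CPM in them, 6127 CPM in Hp and Chil3 high, 4434 CPM in C1q high and 3221 CPM in remaining cells. Cxcl2 followed the same order, with 6847, 4345, 3917 and 1787 CPM. Ptgs2 had 332, 184, 117 and 68.6 CPM, and Cd14, the co-receptor of lipopolysaccharide, had 2041, 1756, 935 and 501 CPM. Thbs1 did not separate them from Hp and Chil3 high cells (1026 and 910 CPM) but did from C1q high and remaining cells (283 and 360 CPM). Summed over the 5 genes of the rule, the mean was 4755 CPM in them and 6149 CPM in Hp and Chil3 high cells. C1q high cells stood at 2042 CPM and remaining cells, which the cut kept low, at 262 CPM. High levels of the 5 genes are thus not particular to the Il1rn and Clec4e high cells. Of the 2 marks of monocyte maturation, Ly6c2 was at 1116, 2496, 170 and 1606 CPM and the MHC class II gene H2-Aa at 6485, 2494, 11587 and 6040 CPM. These means are descriptions over 5 mice for the first 2 classes and 8 mice for the others.

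Slc3a2 (chr19:8706882-8723369, minus strand), which encodes CD98hc, was the targeted gene. In Il1rn and Clec4e high cells it had 484, 384, 219 and 803 CPM in control and 338, 350, 289 and 329 CPM in cKO mice. The cKO mice were close to each other and lay inside the control range. Over the 5 mice tested the log2 fold change was -0.99 ± 0.23 (SE), which passed the test (edgeR, adjusted p = 0.0459). With all 8 mice it was -0.54 and did not (edgeR, adjusted p = 0.577), and it passed in 9 of 18 settings. Cre removes exon 3 of the gene, and the 3′ kit counts tags near the end of the transcript, outside that exon, so these counts do not check the deletion. EYFP was found in 5.77% of the cells against 28.6% of C1q high cells, and Cx3cr1 in 0.924% against 5.45%. EYFP had 31.9, 154, 19.9 and 14.1 CPM in control and 56.4, 4.22, 5.78 and 15.9 CPM in cKO mice, and the control 2 value comes from 7 cells.

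The second question was which genes differed between control and cKO mice within these cells. Of 5789 genes tested outside the rule, 58 were higher in cKO mice (1%) and 29 were lower (0.501%) at an adjusted p under 0.05 (edgeR quasi-likelihood test on the summed counts). Counts of higher and lower genes in every list below are to be read against these shares. Log2 fold changes were between 0.68 and 7.37 for the higher and between -5.42 and -0.86 for the lower genes, and the median over all genes was -0.02. With all 8 mice, 48 of the 58 and 13 of the 29 were past the threshold. The 8 mice did not overlap for 42 of the 58 higher genes and 11 of the 29 lower genes, where 3.56% of all genes had every cKO mouse above and 2.94% had every cKO mouse below the control mice. The count of higher genes rested on single mice, with 109 without control 1, 29 without control 4, 31 without cKO 7 and 27 without cKO 8, and leaving out a control mouse assumes that the lone one varies like the cKO mice. The lower genes were 9 without cKO 7 and 10 without cKO 8.

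Interferon-stimulated genes were the largest set among the higher genes. They are switched on after type I or type II interferon, and their products block viruses at many steps. Of 59 such genes tested, 19 were higher and none was lower, against 1% and 0.501% of all genes, and 52 had a log2 fold change above 0. Their median log2 fold change was 1.26, against -0.02 over all genes. For 23 of the 59, all cKO mice lay above all control mice, against 3.56% of all genes. The count was 27 with all 8 mice, 7 without control 4, 11 without cKO 7, 12 without cKO 8 and 24 without control 1 or without cKO 6, in fits that tested 48 to 59 of the genes.

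Irf7, the factor that amplifies the interferon response, had 108, 0, 99.5 and 257 CPM in control and 775, 671, 1101 and 1034 CPM in cKO mice (log2 fold change 2.33 ± 0.32, edgeR adjusted p = 0.00163). Isg15, a ubiquitin-like protein, had 351, 154, 139 and 222 CPM in control and 860, 675, 1361 and 1250 CPM in cKO mice (2.0 ± 0.31, edgeR adjusted p = 0.00428). Oas1g, of the family of oligoadenylate synthetases that sense double-stranded RNA, had 89.2, 115, 219 and 127 CPM against 381, 354, 590 and 508 CPM (2.17 ± 0.29, edgeR adjusted p = 0.00163). The groups were apart for each of these genes, in the mice with few cells as well. Isg15 was found in 14.3 to 41.9% of cells in control and 73.7 to 100% in cKO mice, against 27.7% of the Cd3 cells.

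The largest changes were of genes nearly absent from control cells. Ifi44 had no UMI in control and 81 UMIs in cKO mice, at least 8.69-fold higher against a floor of 3 UMIs over the control group. Ifit1, which binds viral RNA ends, had 2 and 171 UMIs, a ratio of pooled CPM of 27.5 (95% counting interval 7.5 to 229). Rsad2, the antiviral enzyme viperin, had 3 and 206 UMIs (22.1, 7.46 to 108). Usp18, the protease that removes ISG15 and dampens interferon signalling, had 3 and 194 UMIs (20.8, 7.02 to 102), and Ifi208 had 2 and 141 UMIs (22.7, 6.17 to 189). These intervals cover counting error only. Slfn4 rose by a log2 fold change of 3.26 (edgeR adjusted p = 0.00804) and Ifi206 by 2.87 (edgeR adjusted p = 0.0149). Of the Ifi200 family, which senses DNA, 8 of 11 genes tested were higher, and of the Phf11 family 4 of 4, both counted after their values were seen. Members of the Ifi200, Phf11 and Oas1 families are near-identical copies, so reads can move between them and their separate values are uncertain.

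The promoters of the higher genes were searched on both strands for GAAA followed, after any 2 bases, by GAAA again, the kind of repeat that interferon-response factors bind. RefSeq promoters (GRCm38.p6) of 300 bases, from 250 before to 50 after the gene start, were at hand for 49 of the 58 higher genes. The motif was found for 16 of these 49 (32.7%) and for 2 of 23 lower genes (8.70%), against 4.94% of 4577 tested genes and 3.44% of all 32851 promoters. Most of the 16 are copies of the Ifi200, Phf11 and Oas1 families, several with near-identical promoters. The 16 are therefore not independent, and the share counts related sequences more than once. A match is a description of letters and shows no binding. The 3 genes Isg15, Oas1g and Ifit1, which carry the change, are shown by the 150 bases before their start, 5′ to 3′ along the gene, with the motif and its overlapping repeats in capitals (chr4:156200819-156200968, minus strand, for Isg15, chr5:120887614-120887763, minus strand, for Oas1g, and chr19:34640739-34640888, plus strand, for Ifit1).
Isg15: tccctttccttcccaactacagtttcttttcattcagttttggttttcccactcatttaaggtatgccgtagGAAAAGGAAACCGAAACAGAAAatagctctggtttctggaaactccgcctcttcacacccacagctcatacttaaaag
Oas1g: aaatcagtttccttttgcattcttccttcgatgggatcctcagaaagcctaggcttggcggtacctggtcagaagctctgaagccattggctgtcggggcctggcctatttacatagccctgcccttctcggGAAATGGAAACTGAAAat
Ifit1: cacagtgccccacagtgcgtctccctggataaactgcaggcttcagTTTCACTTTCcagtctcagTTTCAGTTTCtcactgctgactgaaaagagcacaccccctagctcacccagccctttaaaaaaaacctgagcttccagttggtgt
Isg15 holds 3 overlapping matches that begin 78 bases before the start, Oas1g holds 2 that begin 18 bases before it, and Ifit1 holds 2 on the opposite strand that begin 104 bases before it. Irf7 and Ly6c2 hold no match in their windows.

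**Figure D4:**
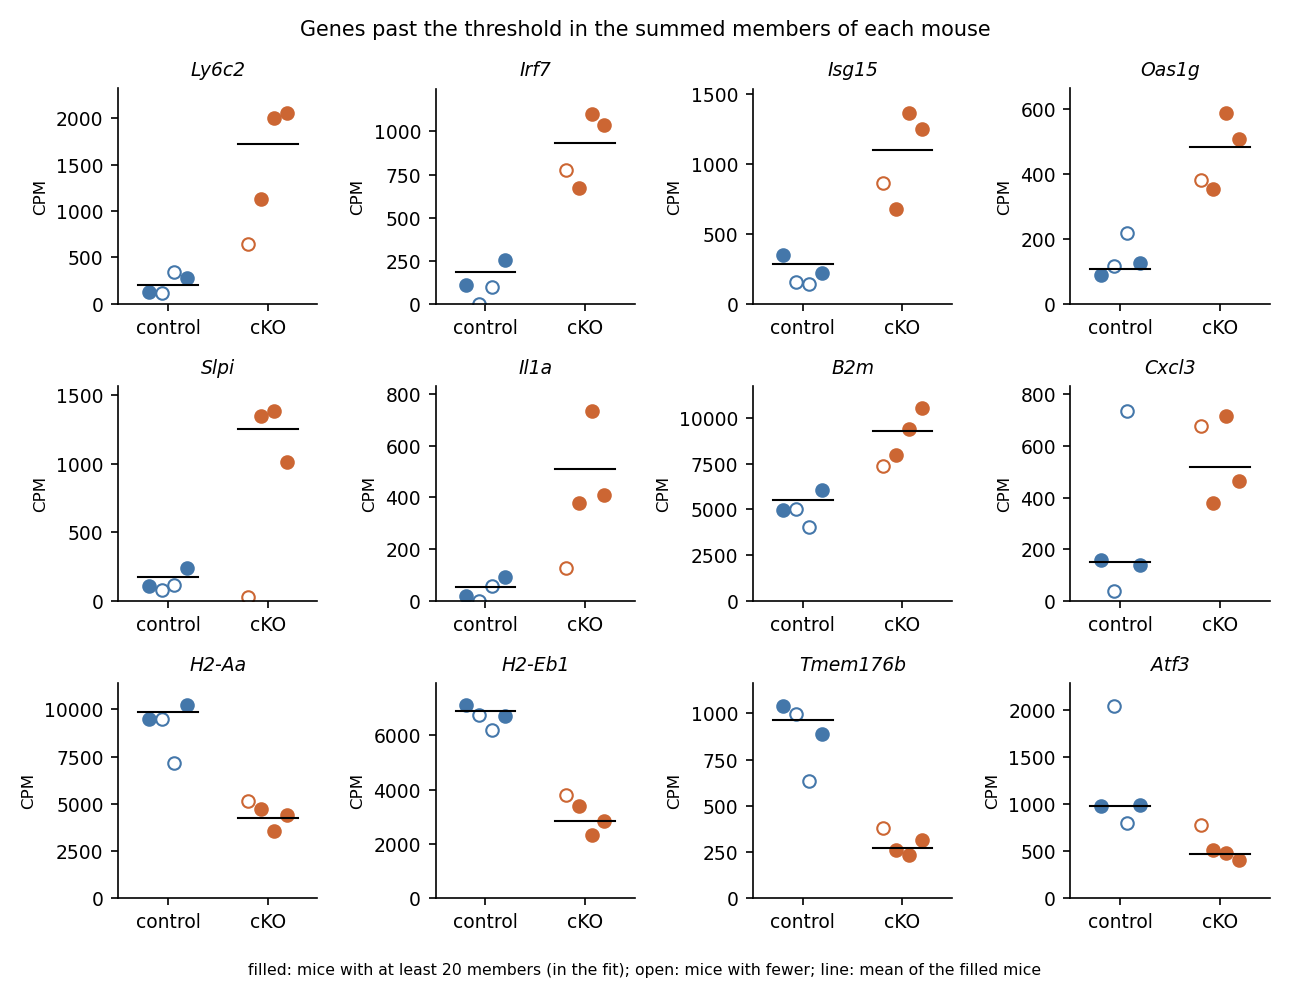
CPM of 12 genes in the summed Il1rn and Clec4e high cells of each mouse, where filled points are the 5 mice in the fit, open points are mice with fewer than 20 cells, and lines are the means of the filled points. Ly6c2, Irf7, Isg15, Oas1g, Il1a and B2m lie higher in all cKO mice, H2-Aa, H2-Eb1, Tmem176b and Atf3 lie lower, and Slpi and Cxcl3 overlap through cKO 5 or control 3.

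Ly6c2 (chr15:75108158-75111970, minus strand), which encodes the Ly6C antigen of inflammatory monocytes, had 127, 115, 338 and 275 CPM in control and 648, 1127, 1999 and 2050 CPM in cKO mice. The log2 fold change was 3.08 ± 0.33 (edgeR, adjusted p = 0.000197). It was found in 20.9 to 30% of cells in control and 52.6 to 91.7% in cKO mice, against 10.8% of the Cd3 cells. Its neighbour Ly6c1 is almost identical, so the 2 genes cannot be told apart with certainty. Plac8, another monocyte gene, had 2837, 346, 3839 and 3340 CPM against 4737, 5819, 6849 and 5212 CPM (0.97 ± 0.17, edgeR adjusted p = 0.00804). It passed in 14 of 18 settings, and with all 8 mice it did not (1.19, edgeR adjusted p = 0.0663). Of 7 monocyte markers tested, these 2 were higher and none was lower. Ccr2, the receptor that brings monocytes from blood, was at 637, 845, 438 and 510 CPM in control and 465, 325, 513 and 399 CPM in cKO mice and did not pass the test (-0.43, edgeR adjusted p = 0.512). Of 11 macrophage markers tested none passed the test in either direction, with a median log2 fold change of -0.21.

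Of 12 genes of MHC class II presentation tested, 5 were lower and none higher (0.501% and 1% of all genes), and 7 did not pass the test. Their products mark monocytes that mature toward macrophages and present peptides to CD4 T cells. The median log2 fold change of the list was -0.73, and 4 of the 12 had one above 0. H2-Aa (chr17:34282744-34287823, minus strand) had 9517, 9484, 7181 and 10229 CPM in control and 5131, 4722, 3559 and 4400 CPM in cKO mice (-1.2 ± 0.16, edgeR adjusted p = 0.00155). H2-Eb1 had 7107, 6758, 6206 and 6719 CPM against 3792, 3384, 2344 and 2833 CPM (-1.25 ± 0.17, edgeR adjusted p = 0.00163). Both groups were narrow and far apart. H2-Aa was found in 85.9 to 100% of cells in control and 65.5 to 100% in cKO mice, against 53.8% of the Cd3 cells. H2-Eb1 was found in 81.7 to 100% and 63.4 to 100%, against 49.2% of the Cd3 cells. The part of free RNA and of cells rich in Cd209a in these levels was not tested. H2-Ab1 (-0.97) and Cd74, the invariant chain (-0.86), also did not overlap but passed the test in the 5 mice only, with adjusted p values of 0.0778 and 0.138 with all 8 mice (edgeR). Per cell, the summed class II list had a median between 436 and 689 UMIs per 10000 in control and between 90.6 and 384 in cKO mice.

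Of 16 genes of MHC class I presentation tested, 3 were higher, none was lower (1% and 0.501% of all genes) and 13 did not pass the test. Their median log2 fold change was 0.48. B2m, the light chain shared by class I molecules, had 4972, 5030, 4018 and 6082 CPM in control and 7373, 7946, 9363 and 10551 CPM in cKO mice (0.78 ± 0.16, edgeR adjusted p = 0.0255). H2-Q7 (1.69, edgeR adjusted p = 0.0155) and H2-Q6 (2.5, edgeR adjusted p = 0.0184) were higher too, but these near-identical genes share reads. The classical genes H2-K1 (0.65) and H2-D1 (0.62) did not pass the test in these 5 mice (edgeR, adjusted p = 0.132 and 0.0801). For 7 of the 16 genes all cKO mice lay above all control mice, against 3.56% of all genes.

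**Figure D5:**
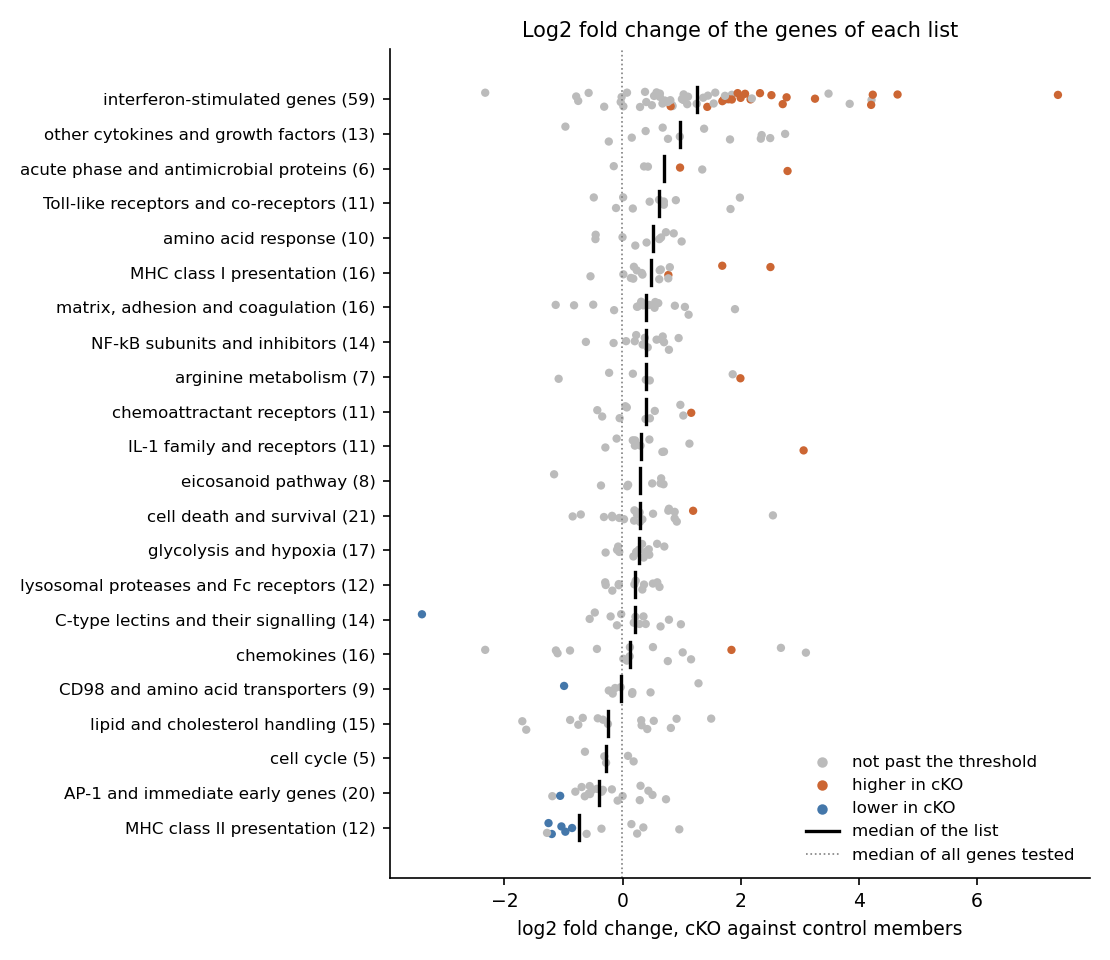
Log2 fold change (cKO over control, edgeR) of each tested gene in the summed Il1rn and Clec4e high cells, grouped by gene list, with the genes past the threshold marked and the median of each list drawn. Interferon-stimulated genes (median 1.26) lie mostly above 0 and MHC class II genes (median -0.73) mostly below, against a median of -0.02 over all genes.

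Within the IL-1 family, 1 of 11 genes tested was higher and none was lower (1% and 0.501% of all genes). This was Il1a (chr2:129299610-129309972, minus strand), with 19.1, 0, 59.7 and 91.5 CPM in control and 127, 380, 733 and 411 CPM in cKO mice (3.07 ± 0.43, edgeR adjusted p = 0.00205). Every cKO mouse lay above every control mouse. Il1b, found in 98.4% of cells, had 7426, 10559, 6385 and 9870 CPM in control and 8092, 9968, 11651 and 9814 CPM in cKO mice, and its log2 fold change of 0.30 ± 0.15 did not pass the test (edgeR, adjusted p = 0.489). It stood high in both groups.

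Of 16 chemokine genes tested 1 was higher, against 1% of all genes. Cxcl3 had 159, 38.4, 736 and 141 CPM in control and 677, 380, 714 and 463 CPM in cKO mice (1.84 ± 0.30, edgeR adjusted p = 0.00602), but control 3, which was not in this test, was the highest mouse, and with all 8 mice the adjusted p was 0.122. Of 11 chemoattractant receptors, Ptafr, the receptor for platelet-activating factor, was higher (1.16 ± 0.25, edgeR adjusted p = 0.0306), with 223, 154, 99.5 and 165 CPM in control and 550, 456, 353 and 458 CPM in cKO mice. No gene of 13 other cytokines, 11 Toll-like receptors and co-receptors, 14 NF-kB subunits and inhibitors, 8 eicosanoid genes, 17 genes of glycolysis and hypoxia or 16 genes of matrix, adhesion and coagulation passed the test in either direction. Ptgs2, for example, had a log2 fold change of 0.65 (edgeR, adjusted p = 0.419) and Nfkbia, the inhibitor IκBα, 0.68 (edgeR, adjusted p = 0.192). The medians of these lists were 0.97, 0.62, 0.40, 0.30, 0.27 and 0.40 in the same order. Over all lists without a call, marker lists included, 43 of 135 genes had an unadjusted p under 0.05 (edgeR), and DESeq2 called none either. Of all genes tested, 663 of 5789 had such a p, so these lists were not shown to be unchanged. Such a p was found from 2 of 17 genes of glycolysis and hypoxia to 8 of 13 other cytokines.

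Of the C-type lectins and their signalling partners, 1 of 14 tested was lower and none was higher (0.501% and 1% of all genes). It was Clec10a, a galactose-binding lectin of macrophages and dendritic cells, at 51.0, 0, 0 and 63.4 CPM in control and 14.1, 8.44, 4.34 and 4.54 CPM in cKO mice (-3.40 ± 0.51, edgeR adjusted p = 0.0036). Mgl2, its close relative, was also lower (-3.19, edgeR adjusted p = 0.0224), but over 50% of its control UMIs lay in 3 cells. The part of cells rich in Cd209a in both falls was not tested. Clec4n, which encodes Dectin-2 and pairs with the Fc receptor γ chain as Mincle does, was at 280, 115, 438 and 873 CPM against 761, 852, 655 and 778 CPM and did not pass the test (0.39, edgeR adjusted p = 0.691).

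Of 6 acute phase and antimicrobial genes tested, 2 were higher, Slpi and Plac8. Slpi (chr2:164354070-164389095, minus strand), a secreted inhibitor of leukocyte proteases, had 108, 76.8, 119 and 243 CPM in control and 28.2, 1350, 1384 and 1014 CPM in cKO mice (2.79 ± 0.29, edgeR adjusted p = 0.000187). It was found in 16.3 to 28.6% of cells in control, in 42.1 to 60% in cKO 6 to 8, and in 16.7% in cKO 5, against 4.62% of the Cd3 cells. The 3 cKO mice with over 20 of these cells were thus far above every control mouse, and cKO 5 was not. Of 7 genes of arginine metabolism, 1 was higher. It was Ass1, argininosuccinate synthase, which makes arginine from citrulline, with 95.6, 76.8, 199 and 151 CPM against 409, 342, 449 and 694 CPM (2.0 ± 0.33, edgeR adjusted p = 0.00602). Its copy Gm5424 shares its sequence, so both values are uncertain. Ass1 was found in 14.3 to 30% of cells in control and 47.4 to 83.3% in cKO mice. The Cd3 cells, at 36.9%, lay above every control mouse, and the part of free RNA was not tested. Arg1 varied too much between mice to pass the test (1.87 ± 0.66, edgeR adjusted p = 0.239).

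Of 20 immediate early genes tested, 1 was lower, none was higher (0.501% and 1% of all genes) and 19 did not pass the test. Their median log2 fold change was -0.39. For 6 of the 20 every cKO mouse lay below every control mouse, against 2.94% of all genes. Atf3, a stress-induced factor of the CREB family, had 982, 2035, 796 and 986 CPM in control and 775, 515, 477 and 406 CPM in cKO mice (-1.06 ± 0.19, edgeR adjusted p = 0.0104). It passed in 12 of 18 settings, and with all 8 mice it did not (edgeR, adjusted p = 0.0509). Fos (-0.55) and Junb (-0.64) did not pass the test (edgeR, adjusted p = 0.134 and 0.109). Such genes respond to tissue digestion and sorting, and the part of these steps in the values was not tested. Of 21 genes of cell death and survival, Bcl2a1b, an inhibitor of apoptosis, was higher (1.19 ± 0.24, edgeR adjusted p = 0.0184) and none was lower. Its copies Bcl2a1a (0.88) and Bcl2a1d (0.77) share reads with it and did not pass the test (edgeR, adjusted p = 0.192 and 0.232).

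The partners of CD98hc and the genes that respond to amino acid shortage did not pass this test. Of 9 CD98 and amino acid transporters tested, Slc3a2 itself was lower and none was higher, with a median of -0.03. Slc7a11, the cystine transporter that pairs with CD98hc, had 210, 230, 199 and 299 CPM in control and 352, 270, 380 and 397 CPM in cKO mice (0.47 ± 0.25, edgeR adjusted p = 0.51). Of 10 genes of the amino acid response none passed the test. Its central factor Atf4 had a log2 fold change of -0.46 ± 0.25 (edgeR, adjusted p = 0.512) and its target Ddit3 of 0.22 ± 0.27 (edgeR, adjusted p = 0.814). None of 15 lipid and cholesterol genes, 12 lysosomal protease and Fc receptor genes and 5 cell cycle genes passed the test either. Among these, Apoe had 8089, 9177, 5391 and 3192 CPM in control and 6231, 3059, 3117 and 2851 CPM in cKO mice (-0.89 ± 0.27, edgeR adjusted p = 0.158). Hmgcs1 and Msmo1, enzymes of cholesterol synthesis outside the list of 15, were lower and are given at the end.

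Among the lower genes, 6 had over 50% of their control UMIs in 3 cells (Adamdec1, Sparc, Gsn, Selenom, Mgl2 and Tmem119), and none of the higher genes was so concentrated in its cKO cells. Adamdec1 (chr14:68563380-68582095, minus strand) had the largest fall, with 472, 0, 0 and 613 CPM in control and 28.2, 0, 13 and 18.1 CPM in cKO mice (-5.42 ± 0.38, edgeR adjusted p = 3.71e-06). Control 2 and 3 were at 0, as was cKO 6. The 3 cells without Tyrobp that were rich in stromal markers held 243 of its UMIs, and with Tyrobp required its log2 fold change was 0.07 (edgeR, adjusted p = 0.99). Sparc, a matrix protein gene, had 363 and 271 CPM in the same 2 control mice and was too rare to be tested once Tyrobp was required, as was Tmem119. Gsn went from -1.72 to -0.32 and Selenom from -2.16 to -0.82, both no longer past the threshold (edgeR, adjusted p = 0.723 and 0.653). In all, 56 genes were then higher and 20 lower, of which 52 and 19 were among the 58 and 29.

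Lower genes that did not depend on the stromal-marker cells included the channel genes Tmem176a and Tmem176b. Tmem176b, known from dendritic cells and macrophages, had 1039, 998, 637 and 887 CPM in control and 381, 262, 234 and 315 CPM in cKO mice (-1.81 ± 0.21, edgeR adjusted p = 0.000503). Tmem176a, beside it in the genome, had 969, 461, 338 and 623 CPM against 155, 160, 133 and 256 CPM (-2.08 ± 0.29, edgeR adjusted p = 0.00163). Neither overlapped between the groups. Aldoc, a glycolytic aldolase at low level, was lower as well (-2.56, edgeR adjusted p = 0.0363), from 57.4, 0, 59.7 and 38.7 CPM to 0, 12.7, 8.67 and 2.27 CPM. It lies outside the list of glycolysis and hypoxia genes above.

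The change in these cells was compared with that in the Hp and Chil3 high cells of the same mice, in 1 fit with the mouse as a block. Of 7391 genes, 10 differed in their change (0.135%, edgeR adjusted p under 0.05), and 363 had an unadjusted p under 0.05. None of the 19 higher interferon-stimulated genes was among them, so a difference in their rise between both classes was not shown. Ly6c2 rose more in the Il1rn and Clec4e high than in the Hp and Chil3 high cells, by 3.08 against 1.69 on the log2 scale (difference 1.38 ± 0.25, edgeR adjusted p = 0.0020). Slpi rose by 2.79 against 1.43 (difference 1.45 ± 0.28, edgeR adjusted p = 0.0040), where the rise in Hp and Chil3 high cells did not pass the test (edgeR, adjusted p = 0.121). With sums of at least 10 cells the differences were 0.98 and 1.27 and did not pass (edgeR, adjusted p = 0.700 and 0.143). Ly6c2 also rose in C1q high cells, by 3.34, and in remaining cells, by 2.58 (edgeR, adjusted p = 0.000245 and 0.000113), and no difference from these classes was shown (0.35 and 0.73, edgeR adjusted p = 0.987 and 0.153). Slpi rose by 2.84 in C1q high cells (edgeR, adjusted p = 0.0262), again with no difference shown (0.60, edgeR adjusted p = 0.977), while its 0.92 in remaining cells did not pass and differed from that in the Il1rn and Clec4e high cells (2.23, edgeR adjusted p = 6.5e-09). Ly6c2 in Hp and Chil3 high cells started higher, at 908 and 1229 CPM in control 1 and 4, and reached 2713 to 4311 CPM in cKO 6 to 8. Ifitm1, an interferon-induced membrane protein, had 1033, 115, 239 and 1545 CPM in control and 226, 1283, 581 and 386 CPM in cKO mice, and its change was lower here than in Hp and Chil3 high cells (difference -1.57 ± 0.26, edgeR adjusted p = 0.000385).

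The other 7 genes were G0s2, Dcn, Adamdec1, Gsn, Il1r2, Igfbp4 and Cd9, each with a smaller or more negative change in the Il1rn and Clec4e high cells. For G0s2, a regulator of lipid breakdown also abundant in neutrophils, 54 of its 63 control UMIs came from a single cell of control 1, and without that mouse the difference went from -6.67 to -3.54 (edgeR, adjusted p = 0.811). Dcn, Adamdec1 and Gsn are genes of the stromal-marker cells named above. With Tyrobp required, 4 of the 10 were past the threshold (G0s2, Ifitm1, Ly6c2 and Slpi). Without control 1 only 3 genes were, and Ly6c2 (1.18, adjusted p = 0.151) and Slpi (1.47, adjusted p = 0.161) were not among them (edgeR), with 1 control mouse left. Without control 4 Slpi did not pass either (1.47, edgeR adjusted p = 0.677).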

How the data were processed

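The authors ran Cell Ranger with STAR 2.5.3a against mm10 plus EYFP. The deposited table holds raw UMI counts of 16889 genes in 5947 barcodes, each joined to its mouse by its well. Members and gene lists were chosen with earlier results of these data known. Counts were summed per mouse from 20 cells, and genes with over 1 CPM in 3 sums and a UMI in 20 cells were tested with edgeR 4.0.16 (TMM, quasi-likelihood, Benjamini-Hochberg over all genes, threshold 0.05). P-values measure the spread between these mice. Shares were compared by exact permutation (scipy 1.17.1), and doublets called by Scrublet in scanpy 1.11.5. Named were the rule genes, Thbs1, Slc3a2, EYFP, the 10 largest changes each way of non-overlapping mice in the fit, up to 4 called and the 4 most abundant genes of a list, the 8 smallest p of the class comparison and 15 leading genes, and others after their values were seen. Of 200 genes changed 4-fold in simulated data, 101 were recovered (5800 genes, 6 wrong calls), and 18 in the class comparison (7402 genes, 0 wrong). Alternatives were DESeq2 1.42.0, other tests, filters, cuts, denominators, doublet removal, each mouse left out and, added after seeing the data, a Tyrobp UMI required.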

Additional observations from a re-analysis of the deposited data

Results flagged for a closer look

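Among 44 groups of 4 mice checked for a mouse far from the other 3, chance alone sets about 5% apart, and 4 were found. Saa3 was at 0 CPM in control 2, which held 7 of the cells, against 961 to 1090 CPM in the other control mice. EYFP was at 154 CPM in the same mouse, against 14.1 to 31.9 CPM. The median per cell of the MHC class I list was 116 UMIs per 10000 in control 4, against 90.1 to 91.4 in the other control mice. The median of the immediate early genes was 117 in cKO 8, against 138 to 141 in the other cKO mice.

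For 10 genes the change between control and cKO mice differed between the Il1rn and Clec4e high and the Hp and Chil3 high cells (edgeR, mouse as a block). The differences on the log2 scale were -6.67 for G0s2, -1.57 for Ifitm1, 1.38 for Ly6c2, 1.45 for Slpi, -4.20 for Dcn, -5.01 for Adamdec1, -1.67 for Gsn, -2.66 for Il1r2, -5.48 for Igfbp4 and -3.16 for Cd9. Ly6c2 and Slpi had a positive difference, and the other 8 a negative one.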

How the results depend on the processing

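The difference in share stayed positive in every setting run. It was 11.7 points without the absent-gene cells in the denominator, 5.86 per deposited barcode and 11.4 without doublet calls, none past the threshold, and 9.02 to 13.5 with each mouse left out. The 58 higher genes became 108 with the likelihood ratio test, 203 without the low-count filter, 3 when the fold had to exceed 2-fold, 38 at a cut of 5 per 10000 and 27 to 109 with each mouse left out. The 29 lower genes became 14 with DESeq2 (48 higher), 57 with the likelihood ratio test, 143 without the filter, 79 in 1 fit over 4 classes, 2 with the fold threshold, 10 at a cut of 20 per 10000 and 9 to 28 with each mouse left out. The 10 genes whose change differed became 0 without the mouse block (edgeR, 292 at an unadjusted p under 0.05), 23 against C1q high cells, 84 against remaining cells, 4 with Tyrobp required and 3 to 28 with each mouse left out. The causes were not tested. The interferon list had 7 higher genes (without control 4) to 35 (without the filter), 27 with all 8 mice and 0 under the fold threshold, and MHC class II 2 to 6 lower genes and 0 under it. Adamdec1 reversed to 0.066 with Tyrobp required. Of the named genes' other values, 2098 kept the side of the threshold, 56 gained and 164 lost the call. Direction was compared only where the main or the other value passed the threshold. No paired analysis was possible because control and cKO mice share no replicate number. Only 2 control mice and 3 cKO mice held enough cells for the tests, and depth per sum limits genes under a few CPM.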

Other observations

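Some genes past the threshold lie outside the lists and are named after their values were seen. Ifi27l2a, an interferon-induced gene, had 1358, 845, 1213 and 1904 CPM in control and 3693, 3726, 4671 and 4888 CPM in cKO mice (log2 fold change 1.47, edgeR adjusted p = 0.00155). Fth1, the heavy chain of the iron store ferritin, was among the most abundant transcripts of these cells, with 11596 to 15783 CPM in control and 18735 to 23386 CPM in cKO mice (0.68, edgeR adjusted p = 0.0207). Tmsb10, which binds actin monomers, had 1728 to 2246 CPM in control and 2791 to 5031 CPM in cKO mice (1.10, edgeR adjusted p = 0.0036). Hspa1a, the inducible heat shock protein 70, fell from 2722, 2496, 3501 and 1478 CPM to 1226, 515, 546 and 1000 CPM (-1.58, edgeR adjusted p = 0.0117). None of these 4 genes overlapped between the groups.

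Hmgcs1 and Msmo1, both enzymes of cholesterol synthesis, were lower. Hmgcs1 had 89.2, 115, 79.6 and 91.5 CPM in control and 0, 25.3, 26 and 27.2 CPM in cKO mice (-1.74, edgeR adjusted p = 0.0155), without overlap. Msmo1 had 210, 154, 0 and 116 CPM against 14.1, 46.4, 65.0 and 59.0 CPM (-1.38, edgeR adjusted p = 0.0459), and with all 8 mice it did not pass (edgeR, adjusted p = 0.182). Other genes of the same pathway did not pass the test, among them Sqle (-1.63, edgeR adjusted p = 0.0793) and Idi1 (-1.39, edgeR adjusted p = 0.0634). The mitochondrial enzymes Idh2 (-1.55, edgeR adjusted p = 0.0279) and Fh1 (-1.65, edgeR adjusted p = 0.0245) were lower over the 5 mice, and neither passed with all 8 mice (edgeR, adjusted p = 0.151 and 0.0509).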
